A study of Mus musculus with 35 samples.

Results

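The miR-15 and miR-16 family was followed in mouse liver after a single dose of N-ethyl-N-nitrosourea (ENU), an alkylating agent that mutates DNA. The members were the assays named miR-15, miR-16, miR-195, miR-322 or miR-497, with any letter and without star forms, and 6 of the 376 miRNA assays on the PCR array met this rule: mmu-miR-15a, mmu-miR-15b, mmu-miR-16, mmu-miR-195, mmu-miR-322 and mmu-miR-497, written without the species prefix from here on. Small RNA was measured on 35 arrays, 1 per mouse. All animals were female Big Blue transgenic mice of 6 months from Stratagene, which carry a reporter transgene for mutations, so every group shared that background. Treated animals received 120 mg/kg ENU once into the peritoneum and were killed on post-treatment day (PTD) 1, 3, 7 or 15 with 5 mice each, or on PTD 30 or 120 with 4 mice each. The 7 control mice received the vehicle dimethylsulfoxide (DMSO) in the same way, and 3 of them are labelled day 1 and 4 are labelled day 30.

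These miRNAs are known for a common seed, the stretch near the 5′ end that pairs with messenger RNAs. Through it they repress cyclins, cyclin-dependent kinases, CHK1 and BCL2, and so slow the cell cycle and favor apoptosis. In liver the family is known for its part in the exit of hepatocytes from the cell cycle. The mature sequences below, from RefSeq on build GRCm38.p6, are shown because the seed defines the family and the rest of each sequence tells its members apart. Capitals mark the seed, bases 2 to 8, and all 6 members matched a RefSeq entry.
miR-15a: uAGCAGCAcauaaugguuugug
miR-15b: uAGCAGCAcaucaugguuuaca
miR-16: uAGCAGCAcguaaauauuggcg
miR-195: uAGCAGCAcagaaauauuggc
miR-322: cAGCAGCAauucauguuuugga
miR-497: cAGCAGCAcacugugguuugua
miR-503: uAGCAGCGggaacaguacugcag

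The 6 members had the same seed, AGCAGCA. miR-503, a relative encoded beside miR-322, differed from it in the last seed base. The closest pair was miR-16 and miR-195, which were identical at 19 of 21 positions (90.5%), counted from 1 at the 5′ end, and differed by G10A and U11G. miR-15a and miR-15b were identical at 18 of 22 positions (81.8%), and miR-15a and miR-497 at 17 of 22 (77.3%). miR-16 and miR-497 were identical at 11 of 22 (50%), the lowest share between members.

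The members come from 4 loci. miR-15a lies at chr14:61632075-61632096 on the minus strand with a copy of miR-16 at chr14:61631936-61631957, and both are inside Dleu2, a long non-coding RNA gene. miR-15b lies at chr3:69009775-69009796 on the plus strand with the other copy of miR-16 at chr3:69009918-69009939, inside the span of Smc4, which encodes a condensin subunit. The miR-16 assay cannot tell its 2 gene copies apart, since their mature sequence is the same. miR-497 at chr11:70234730-70234751 and miR-195 at chr11:70235062-70235082 are neighbors on the plus strand. miR-322 lies at chrX:53054306-53054327 on the minus strand in the non-coding RNA gene C430049B03Rik, close to miR-503 at chrX:53054027-53054049. Each neighboring hairpin pair spans 225 to 419 bases.

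Expression is given as −ΔCt, the mean threshold cycle (Ct) of 4 reference RNAs (snoRNA251, snoRNA202, snoRNA142 and U6) minus the Ct of the miRNA in the same array. It is a log2 scale, so a difference of 1 is a doubling. No member well was listed as Undetermined in any array. miR-16 had the highest level, with a mean −ΔCt of 5.06 ± 0.73 (SD, n = 35 arrays), and miR-195 followed with 3.90 ± 0.75. miR-15b and miR-15a had 0.30 ± 0.83 and 0.04 ± 0.57, and miR-322 and miR-497 had −1.58 ± 0.89 and −1.74 ± 0.54. miR-195 crossed the threshold after miR-16 in every array, by 0.92 to 1.44 cycles. miR-15a and miR-15b did not keep 1 order, since their Ct difference ran from −1.37 to 0.92 cycles. miR-322 and miR-497 did not keep 1 order either, with −0.86 to 1.58 cycles. Such an order holds as abundance only if the assays amplify equally, which was not tested.

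The run times in the file headers form 3 periods: the first holds the controls labelled day 1, 4 of the PTD 1 arrays and all arrays of PTDs 3, 7 and 15, the second holds 2 controls labelled day 30, the remaining PTD 1 array and all arrays of PTDs 30 and 120, and the last holds the other 2 controls labelled day 30. The label of a control and its run period therefore cannot be told apart. In bulk liver, fewer cells of a type and less RNA per cell cannot be told apart either. As for liver identity, the hepatocyte miRNA miR-122 had a mean Ct of 14.5 and none of the 16 listed markers of 5 cell types was Undetermined in any array. PTD 15 replicate 1 stood apart on miR-122, with a Ct of 18.9 where the other arrays reached at most 15.2, while its Ct of 17.5 for miR-192 and 17.6 for miR-194, also hepatocyte miRNAs, lay within the range of the other arrays. Without that array the number of members past the threshold at PTD 15 was as with it in each of the 3 comparisons described below, 0 against the pooled controls, 5 against the controls of its run period and 1 against PTD 1. Of all 376 miRNAs, 36, 133 and 64 were past it without that array, and 43, 152 and 90 with it.

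The first comparison asked whether ENU changed the family at any time against the 7 pooled controls, which is how the study grouped them. No member was a differentially expressed miRNA (DEM) at any PTD by limma, where a DEM had an unadjusted p under 0.01 and a fold change above 2. The share of DEMs among all 376 miRNAs, in either direction, was 1.33% for PTD 1, 2.13% for PTD 3, 9.84% for PTD 7 and 11.4% for PTD 15, and later 1.6% for PTD 30 and 1.33% for PTD 120. At an unadjusted p under 0.05 the limma fit held 1 member each for PTDs 3 and 7, 2 for PTD 15 and none for the other days, and the exact permutation test gave the same counts. The limma fit held 10.4%, 24.5% and 29% of all miRNAs at that threshold at PTDs 3, 7 and 15, so 1 or 2 of 6 members was close to the background. At PTDs 1 and 120, where no member reached it, the fit held 5.05% and 8.78% of all miRNAs. The DEM counts of 0 changed under other settings. A joint fit of all groups with run period as a block gave 1 member DEM at PTD 3, 3 at PTD 7 and 4 at PTD 15, against 14.9%, 30.3% and 36.2% of all miRNAs. The controls labelled day 30 alone gave 3 members at PTD 1, all lower, against 13% of all miRNAs. The controls labelled day 1 alone gave 2 at PTD 7, 5 at PTD 15, and 4 each for PTDs 30 and 120, against 33%, 40.4%, 37.5% and 27.9%. The median Ct as reference gave 1 each for PTDs 3 and 7, against 4.79% and 18.1%, and the references without snoRNA251 gave 1 at PTD 15, against 16.2%. Log2 fold changes of the members ran from −0.93 to −0.18 on the first day, from −0.25 to 0.76 at PTD 3 and from 0.0063 to 0.73 at PTD 7. They ran from 0.16 to 0.84 at PTD 15, later from 0.54 to 0.81 at PTD 30, and from 0.38 to 1.14 at the last day, PTD 120. Signs of the small values turned with the control set or reference, mainly at PTDs 1, 3 and 7. The smallest adjusted p of any member at any PTD was 0.08 by limma, for miR-15a at PTD 15, with the 4 reference RNAs and all 7 controls. Other settings took members under 0.05, all higher after ENU. The median Ct as reference did so for 3 members at PTD 7 (miR-15a, miR-15b and miR-497) and 2 at PTD 15 (miR-15b and miR-497), against 28.5% and 18.1% of all miRNAs. Run period as a block did so for 1, 4 and 6 members at PTDs 3, 7 and 15, against 11.7%, 32.4% and 41%. The controls labelled day 1 alone did so for 5, 6, 5 and 4 at PTDs 7, 15, 30 and 120, against 40.7%, 47.9%, 48.9% and 36.4%. The median over the members was −0.82 at PTD 1 and 0.56 at PTD 15, against −0.37 and 0.36 over all miRNAs.

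**Figure D1:**
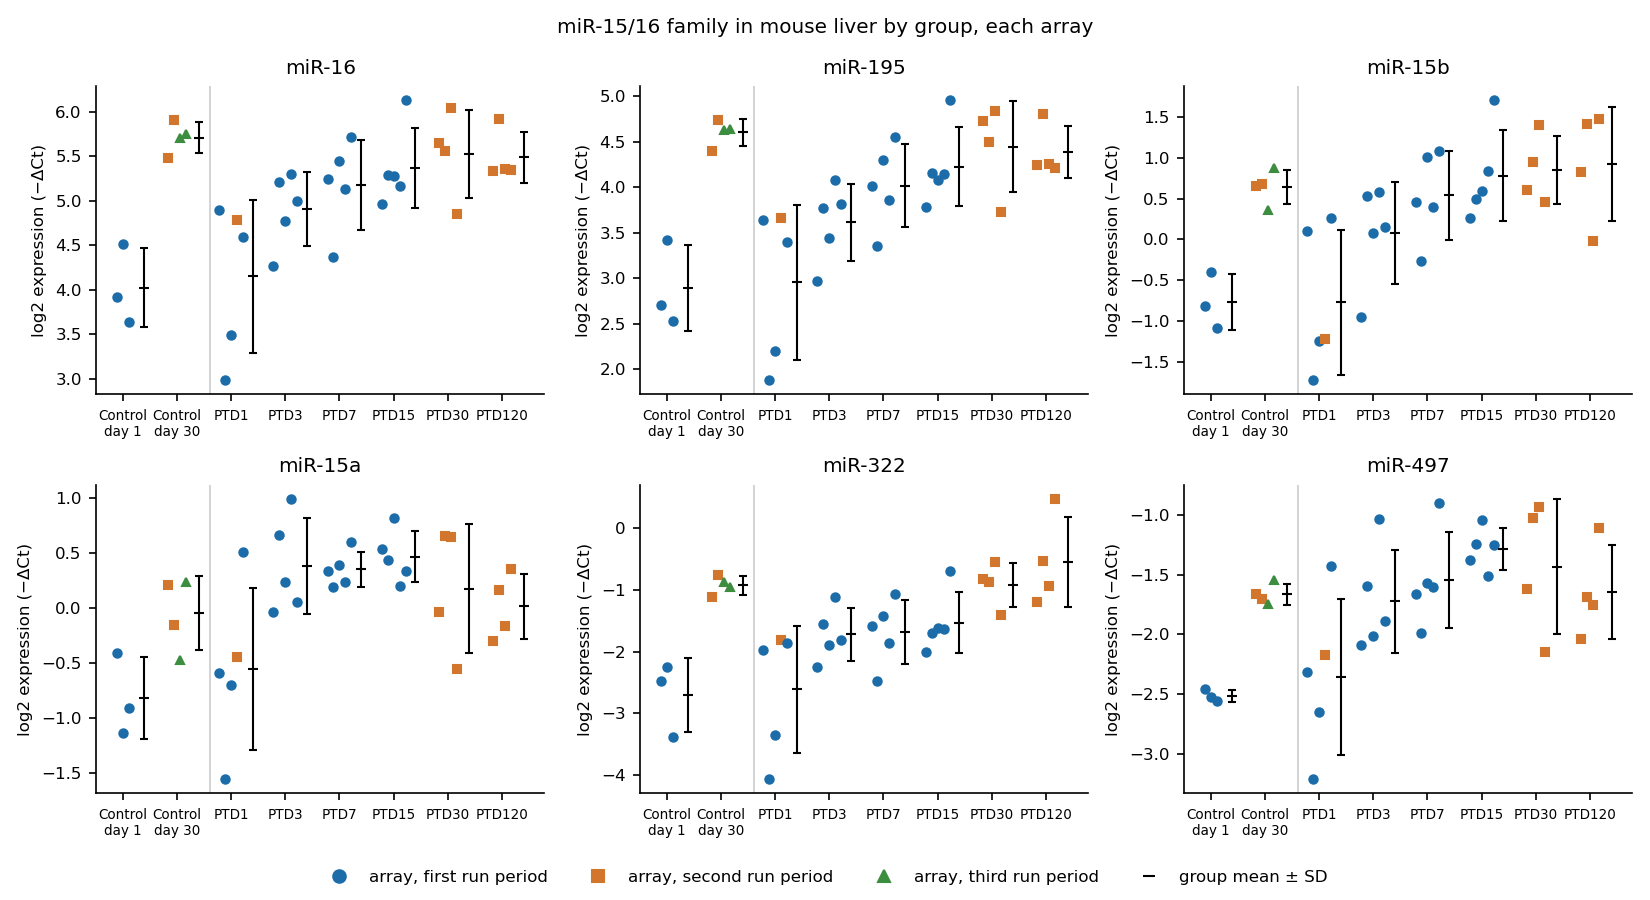
Log2 expression (−ΔCt, y axis) of the 6 members in each group (x axis), with 1 point per array and its run period as color and shape. Black bars give the group mean ± SD. The controls labelled day 1 lie below those labelled day 30 for every member except miR-15a, where they overlap, and the arrays of PTD 15 lie above the controls of their own run period.

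miR-16 had the highest level of the members and a wide spread among the controls. Its −ΔCt was 3.92, 4.52 and 3.64 in the controls labelled day 1. In the controls labelled day 30 it was 5.48, 5.91, 5.71 and 5.75. The control sets did not overlap, as for 47.9% of all miRNAs with the day 30 set higher, and the pooled control mean of 4.99 ± 0.95 (SD, n = 7) fell in the gap between them. At PTD 1 the values were 4.89, 2.98, 3.49, 4.79 and 4.60. At PTD 15 they were 4.97, 5.29, 5.28, 5.16 and 6.14. All arrays of PTD 15 exceeded every PTD 1 array, as for 21.8% of all miRNAs. They also exceeded every control labelled day 1, as for 44.4% of all miRNAs, and 1 of them exceeded every control. Against the pooled controls miR-16 differed by −0.84 ± 0.51 (SE) at PTD 1 and by 0.38 ± 0.45 at PTD 15 on the log2 scale, with exact permutation p of 0.146 and 0.426. Leaving out 1 array moved the first value to between −1.06 and −0.55, the latter without PTD 1 replicate 2. It moved the second to between 0.15 and 0.53, with 0.15 and 0.20 without replicates 3 and 1 of the controls labelled day 1 and 0.19 without PTD 15 replicate 5.

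miR-15a and miR-497, whose control sets lay closer together, came nearest to a change in −ΔCt at PTD 15. The mean reference Ct was 0.77 cycles higher at PTD 15 than in the 7 controls. Raw Ct in those controls minus that at PTD 15 was 0.07 cycles for miR-15a and −0.03 for miR-497. miR-15a had −ΔCt of 0.53, 0.43, 0.82, 0.20 and 0.34 at PTD 15, against −1.14 to 0.23 with a median of −0.41 in the 7 controls. The lowest array of PTD 15 lay just under 2 of the controls, and the other 4 lay above all of them. The log2 fold change was 0.84 (95% interval 0.20 to 1.48), with adjusted p = 0.08 by limma and an exact permutation p of 0.00884. miR-497 had −1.37, −1.24, −1.04, −1.51 and −1.25 at PTD 15, against −2.56 to −1.55 with a median of −1.75 in the controls. All 5 arrays lay above all 7 controls, as they did for 7.71% of all miRNAs. The log2 fold change was 0.74 (95% interval 0.14 to 1.34), with adjusted p = 0.089 by limma and an exact permutation p of 0.00884, where the smallest p this design allows is 0.00126.

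At PTD 3 the deposited array of replicate 3 was used with a reservation given under the processing. Without it no member was a DEM, and the log2 fold change of miR-15a was 0.80. miR-15a had the highest log2 fold change at PTD 3, 0.76 ± 0.34 (SE), with adjusted p = 0.465 by limma. At PTD 120 miR-322 had the highest, 1.14 ± 0.55, with adjusted p = 0.446 by limma and −ΔCt of −1.20, −0.53, −0.94 and 0.48. The last of these arrays lay apart from the other 3.

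The second comparison asked whether the control sets could be pooled for these miRNAs. The controls labelled day 30 had higher levels of miR-15b, miR-16, miR-195 and miR-322, and all 4 were DEMs by limma, while 28.5% of all miRNAs were, each of them higher in the day 30 set. The log2 differences were 1.41 ± 0.26 (SE), 1.69 ± 0.28, 1.71 ± 0.28 and 1.78 ± 0.32, with adjusted p from 0.00707 to 0.00824 by limma. These are 2.65-fold to 3.43-fold differences. miR-497 differed by 0.85 ± 0.20 (adjusted p = 0.015 by limma), short of 2-fold, and miR-15a by 0.77 ± 0.29 (adjusted p = 0.0689 by limma). The exact permutation p was 0.0286 for each member except miR-15a, the smallest that 4 against 3 arrays allow, and 0.0857 for miR-15a. The median over the members was 1.55, against 1.00 over all miRNAs.

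The difference between the control sets held a part from the reference RNAs. The mean reference Ct was 21.2 ± 0.14 (SD, n = 3) in the controls labelled day 1 and 22.1 ± 0.26 (n = 4) in those labelled day 30, a difference of 0.88 cycles. For miR-497 the raw Ct was 23.8 in both sets and differed by 0.04 cycles, so its difference in −ΔCt came from the references. For miR-16 the raw Ct was 17.2 and 16.4, a difference of 0.80 cycles that added to that of the references. With the median Ct of the array in place of the references, no member was a DEM by limma between the control sets, where 5.05% of all miRNAs were, and the differences ran from −0.14 for miR-15a to 0.87 for miR-322. Both miR-15a and miR-497 (−0.057) changed sign. miR-16, miR-195 and miR-322 had an unadjusted p under 0.05 by limma, as did 17.3% of all miRNAs, and by the exact permutation test, and their control sets still did not overlap, as for 12.2% of all miRNAs. Markers of cell types differed too: 3 of 3 hepatocyte, 2 of 2 endothelial, 2 of 5 leukocyte, 1 of 3 stromal and 0 of 3 erythroid markers were DEMs. The summed hepatocyte markers ran from 7.04 to 7.48 on the −ΔCt scale in the day 1 set and from 8.45 to 8.70 in the day 30 set. The endothelial markers ran from 3.01 to 3.94 and from 4.81 to 5.35, the leukocyte markers from −0.37 to 0.40 and from 0.69 to 1.30, the stromal markers from −1.37 to −0.65 and from 0.66 to 0.97, and the erythroid markers from 2.09 to 2.25 and from 2.70 to 3.43. Their part in the difference was not tested.

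**Figure D2:**
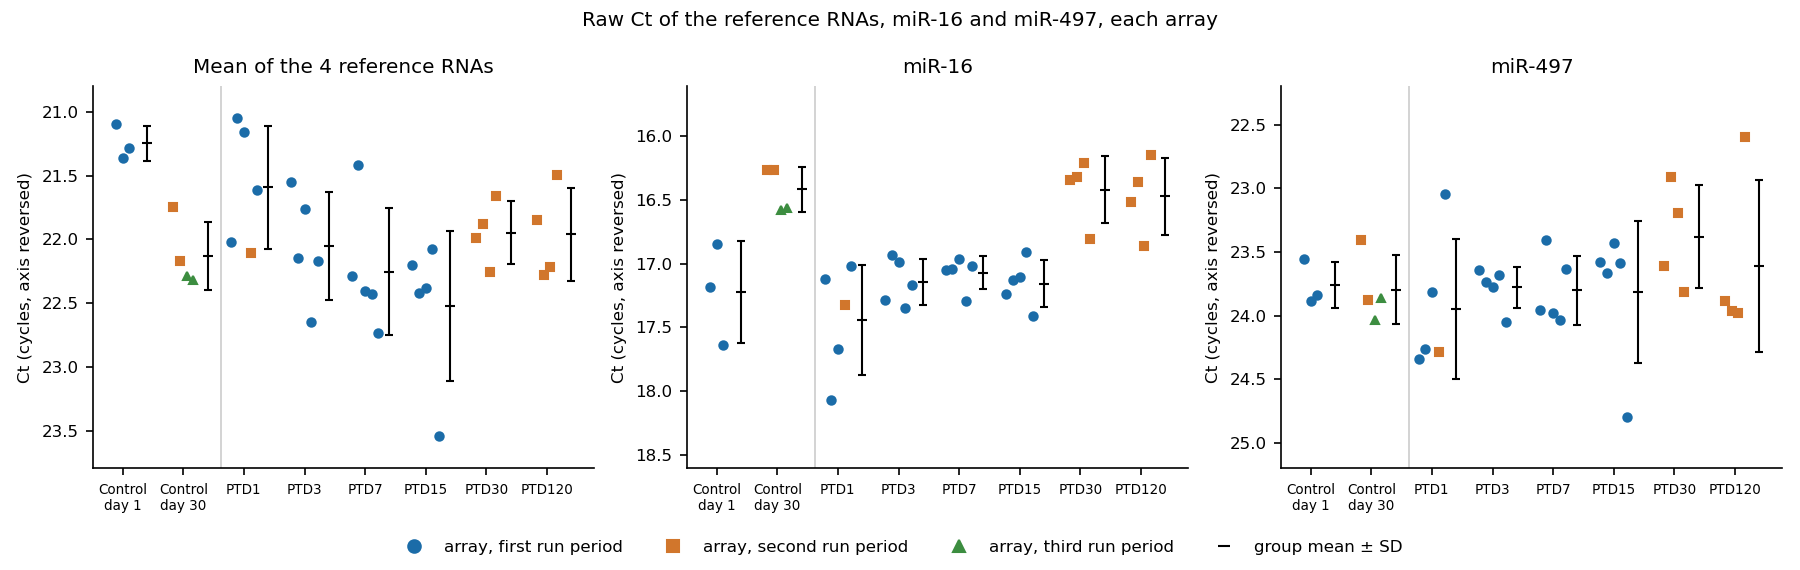
Raw Ct (y axis, reversed so that more RNA is higher) of the mean of the 4 reference RNAs, of miR-16 and of miR-497 in each array by group (x axis), with black bars for the group mean ± SD. The references run from a mean of 21.2 cycles in the controls labelled day 1 to 22.5 at PTD 15, while the mean of miR-497 stays between 23.4 and 23.9.

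A further comparison set each ENU group against controls of its own run period. For PTDs 3, 7 and 15 these were the 3 controls labelled day 1. At PTD 15, 5 of 6 members were DEMs and higher after ENU, against 40.4% of all miRNAs in either direction (134 higher and 18 lower). All 5 arrays of PTD 15 lay above all 3 controls for each of the 6 members, as they did for 44.4% of all miRNAs. The log2 fold changes were 1.55 ± 0.37 (SE) for miR-15b, 1.34 ± 0.35 for miR-16, 1.34 ± 0.35 for miR-195, 1.28 ± 0.28 for miR-15a and 1.23 ± 0.24 for miR-497, with adjusted p from 0.00505 to 0.0132 by limma. miR-322 differed by 1.17 ± 0.39 (adjusted p = 0.0309 by limma) and did not reach the DEM threshold. Each exact permutation p was 0.0179, the smallest that 5 against 3 arrays allow. The median was 1.31 over the members and 1.05 over all miRNAs. The mean reference Ct was 1.28 cycles higher at PTD 15 than in these controls. Raw Ct in the controls minus that at PTD 15 ran from −0.11 cycles for miR-322 to 0.27 for miR-15b.

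At PTD 7, miR-15a and miR-15b were DEMs against the same 3 controls, by 1.17 ± 0.29 (SE) and 1.31 ± 0.37 on the log2 scale, with adjusted p of 0.0127 and 0.0192 by limma, while 33% of all miRNAs were DEMs. The other members differed by 0.97 to 1.16. The mean reference Ct was 1.01 cycles higher at PTD 7 than in these controls. Raw Ct in the controls minus that at PTD 7 ran from −0.04 cycles for miR-497 to 0.30 for miR-15b. The summed markers ran over 7.39 to 8.73 for hepatocytes, 2.60 to 3.96 for erythroid cells, −0.16 to 0.85 for leukocytes, 3.89 to 5.35 for endothelial cells and −0.65 to 0.95 for stromal cells, beside the values of the controls labelled day 1 above. Of these markers, 1 of 3 hepatocyte, 1 of 3 erythroid and 2 of 2 endothelial were DEMs and higher, 1 of 5 leukocyte was lower and 0 of 3 stromal were DEMs, and their part was not tested. At PTD 3 no member was a DEM by limma and 7.98% of all miRNAs were, with differences from 0.73 to 1.20 and an unadjusted p under 0.05 for 3 members by limma, against 26.6% of all miRNAs, and for 3 by the exact permutation test. At PTD 1 no member was a DEM and 1.06% of all miRNAs were, with differences from −0.11 to 0.23 over the 4 arrays of that period. No member had an unadjusted p under 0.05 by limma there, against 3.99% of all miRNAs, or by the exact permutation test. PTDs 30 and 120 were set against the 2 controls of the second period, where the smallest exact p possible is 0.0667. No member was a DEM there by limma. Over the whole array, 0.798% of the miRNA assays passed the DEM threshold for PTD 30 and 0% for PTD 120. No member reached an unadjusted p under 0.05 by limma on either day. The differences ran from −0.17 to 0.25 at PTD 30 and from −0.21 to 0.39 at PTD 120.

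These counts depended on which controls were kept and on the reference. Without replicate 3 of the controls labelled day 1, 2 members were DEMs at PTD 15 and 0 at PTD 7, where the fits called 99 and 87 of all miRNAs. Without replicate 1 of the same controls there were 3 and 1, with 114 and 82 of all miRNAs. At PTD 7, all 6 members were DEMs without PTD 7 replicate 2, with 171 of all miRNAs, and 1 was without replicate 1, 3, 4 or 5, with 93 to 106. At PTD 3, 2 members were DEMs without PTD 3 replicate 1, with 60 of all miRNAs against 30 when it was kept. With the median Ct of the array as reference, miR-15b alone remained a DEM at both days, against 22.3% of all miRNAs at PTD 15 (55 higher and 29 lower) and 29.8% at PTD 7. Its log2 fold changes were 1.06 and 1.09, and the other members ran from 0.69 to 0.86 and from 0.75 to 0.95. That reference moved the median of all miRNAs at PTD 15 from 1.05 to 0.56. Of the cell type markers, 1 of 3 hepatocyte, 2 of 3 erythroid, 0 of 5 leukocyte, 2 of 2 endothelial and 2 of 3 stromal were DEMs at PTD 15 against these controls, all higher, and their part was not tested. Within the first period the groups were run in the order of their PTD, so day after treatment and run order cannot be told apart.

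**Figure D3:**
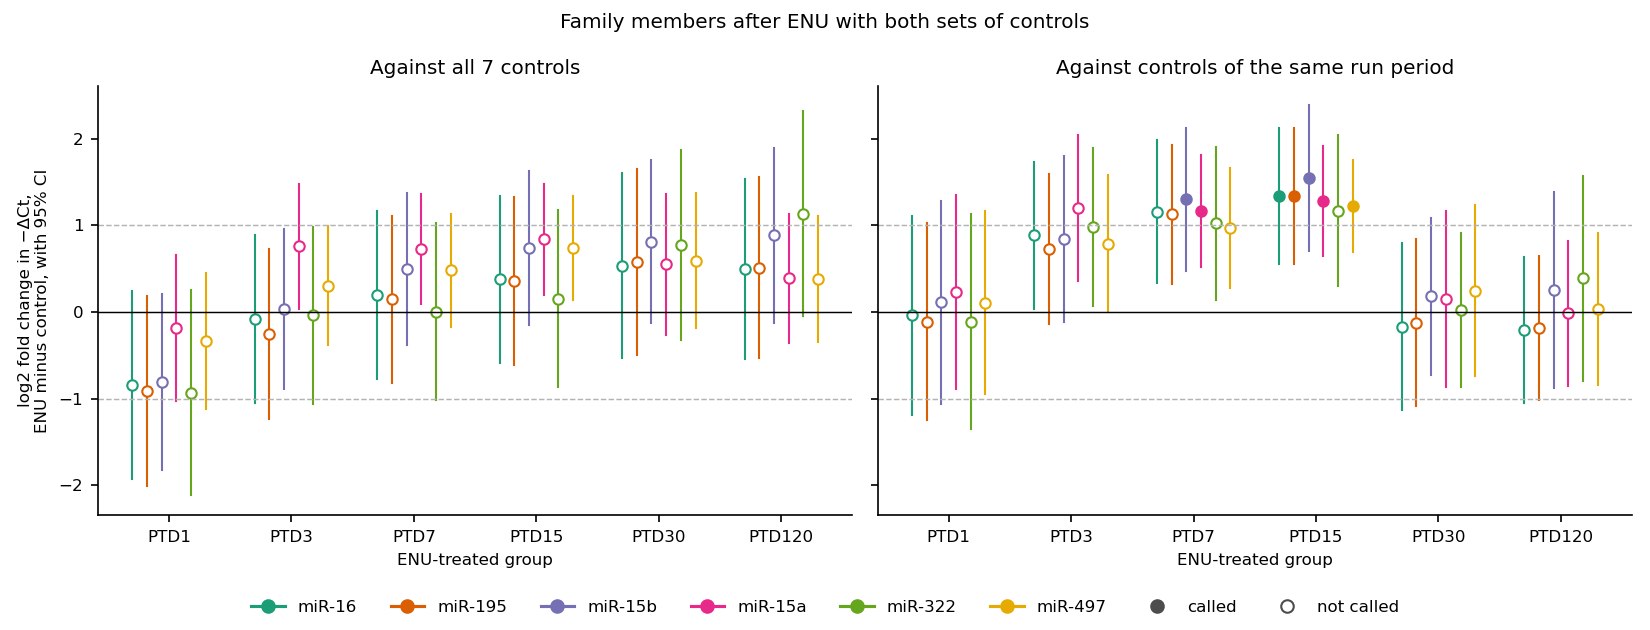
Log2 fold change of each member in −ΔCt (y axis), ENU minus control, with its 95% interval by limma at each PTD (x axis), against all 7 controls (left) and against controls of the same run period (right). Filled points are DEMs, and dashed lines mark a fold change of 2. No point is filled on the left, while 2 are filled at PTD 7 and 5 at PTD 15 on the right.

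The next comparison used no control. PTDs 3, 7 and 15 were each set against PTD 1, and PTD 120 against PTD 30. At PTD 15, miR-15b was a DEM and higher than at PTD 1, while 23.9% of all miRNAs were DEMs. Its −ΔCt was 0.10, −1.73, −1.25, −1.23 and 0.26 at PTD 1. At PTD 15 it was 0.27, 0.50, 0.59, 0.84 and 1.71. All PTD 15 arrays lay above all PTD 1 arrays, the nearest pair at 0.26 and 0.27, as they did for 21.8% of all miRNAs. The log2 fold change was 1.55 ± 0.46 (SE), with adjusted p = 0.0344 by limma and an exact permutation p of 0.00794, the smallest that 5 against 5 arrays allow. Without snoRNA202 among the references 0 members were DEMs, against 12.8% of all miRNAs. Without snoRNA251 there were 4, against 35.4%.

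The other members were 1.02 to 1.27 higher at PTD 15 than at PTD 1 on the log2 scale and were not DEMs. The adjusted p by limma was under 0.05 for miR-16 (0.0481), miR-195 (0.0458) and miR-497 (0.0466), and was 0.057 for miR-15a and 0.0943 for miR-322. With miR-15b, 4 of 6 members were higher at an adjusted p under 0.05 by limma, against 31.1% of all miRNAs. With the median Ct as reference this held for miR-15b alone (1 of 6), against 12.2% of all miRNAs, and the other members had adjusted p from 0.0688 to 0.162 by limma. The median over the members was 1.15, against 0.81 over all miRNAs. The mean reference Ct was 0.93 cycles higher at PTD 15 than at PTD 1, and the raw Ct of miR-16 and miR-497 was 0.28 and 0.14 cycles lower. Over the same contrast 2 of 5 leukocyte and 1 of 2 endothelial markers were DEMs, and 0 of 3 each of the hepatocyte, stromal and erythroid markers. The summed leukocyte markers ran from −1.63 to 0.52 at PTD 1 and from 0.11 to 1.37 at PTD 15, and the endothelial markers from 2.26 to 4.47 and from 4.57 to 5.69. The summed hepatocyte markers ran from 6.40 to 7.91 at PTD 1 and from 5.94 to 9.03 at PTD 15. The lowest is replicate 1, which stood apart on miR-122, and the other 4 arrays lay above all of PTD 1. Without that array miR-122, miR-192 and miR-194 had log2 fold changes of 0.99, 1.23 and 1.21 between PTD 15 and PTD 1 (adjusted p = 0.103, 0.0805 and 0.0807 by limma), where miR-122 had 0.065 with it, and 0 of 2 endothelial markers were DEMs. The stromal markers ran from −2.14 to −0.22 and from −0.36 to 0.77, and the erythroid markers from 1.28 to 3.90 and from 2.95 to 4.18, and the part of any of these was not tested.

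PTD 7 and PTD 3 also lay above PTD 1 for every member, but none was a DEM by limma, against 16.8% and 2.93% of all miRNAs. An unadjusted p under 0.05 was reached by 4 members at PTD 7 and 1 at PTD 3 by limma, against 41.8% and 14.9% of all miRNAs, and by 5 and 1 by the exact permutation test. The differences ran from 0.81 to 1.31 at PTD 7 and from 0.63 to 0.94 at PTD 3. The smallest adjusted p among them was 0.0631 by limma, for miR-15b at PTD 7. The median Ct as reference put 5 of 6 members higher at PTD 7 at an adjusted p under 0.05 by limma, all but miR-322, against 35.1% of all miRNAs. Between PTD 30 and PTD 120 no member was a DEM and 0.798% of all miRNAs were, with differences from −0.21 for miR-497 to 0.37 for miR-322. Restricting PTD 1 to the 4 arrays of the first period made miR-195 the DEM at PTD 15 in place of miR-15b, at 1.45 and 1.44 on the log2 scale, while 26.6% of all miRNAs were DEMs. Leaving out 1 array at a time gave 0 to 3 DEMs among the members at PTD 15 and 0 to 2 at PTD 7, with 46 to 103 and 44 to 81 among all miRNAs. The count at PTD 15 was 0 without PTD 15 replicate 4 or 5 or PTD 1 replicate 2 or 3, and 3 without PTD 1 replicate 1 or 5. At PTD 7 it was 1 without PTD 7 replicate 2 or PTD 1 replicate 1 and 2 without PTD 1 replicate 5.

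A last view needed no reference RNA: the Ct of 1 member minus that of another in the same array. miR-16 and miR-195, whose sequences are the most alike, had the smallest spread. Their difference was 1.16 cycles over the 35 arrays, with an SD of 0.083 within groups, the smallest among 20100 pairs of 201 miRNAs, those detected in every array at an average Ct no higher than 30. The median SD over those pairs was 0.61. The group mean stayed between 1.08 cycles at PTD 30 and 1.29 at PTD 3, while the −ΔCt of miR-16 moved over a range from 2.98 to 6.14. The primer sequences are not given in the sources used here, and whether each assay reads only its own miRNA was not tested. The next assay was unlike them in sequence: miR-10a, identical to miR-16 at 6 of 22 positions, had an SD of 0.089 against miR-16 and of 0.10 against miR-195.

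miR-15a and miR-497 formed the other tight pair, with a difference of 1.78 cycles and an SD of 0.19 within groups. The group mean was 1.65 in all controls, 2.10 at PTD 3 and 1.61 at PTD 30. They come from different chromosomes. Members that share a locus were not as close: the SD was 0.47 for miR-15a and miR-16, 0.37 for miR-15b and miR-16, and 0.39 for miR-195 and miR-497. miR-15a and miR-15b, second in sequence identity, had an SD of 0.48, the widest of the 15 pairs.

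The difference between miR-322 and miR-497 was not the same in groups of the first and of the later run periods. PTDs 30 and 120 and the controls labelled day 30 were run only in the later periods. Day and run period therefore cannot be told apart here. The Ct of miR-497 minus that of miR-322 averaged −0.19 ± 0.57 (SD, n = 3) in the controls labelled day 1 and 0.74 ± 0.20 (n = 4) in those labelled day 30. The groups of PTDs 3, 7 and 15, all of the first period, had means from −0.24 to 0.0024, while PTD 30 had 0.52 ± 0.30 and PTD 120 had 1.10 ± 0.36. The 4 arrays of PTD 120 ran from 0.82 to 1.58, and every array of PTD 30, PTD 120 and the day 30 controls was above 0. Within PTD 1 the array of the second period had 0.36, the highest of the 5. Close to it lay replicate 1 of the first period, with Ct of 24.34 for miR-497 and 23.99 for miR-322. The array of the second period had 24.29 and 23.92. The controls labelled day 1 reached 0.27. The first period reached 0.55 in 1 array of PTD 15, so the periods overlapped.

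**Figure D4:**
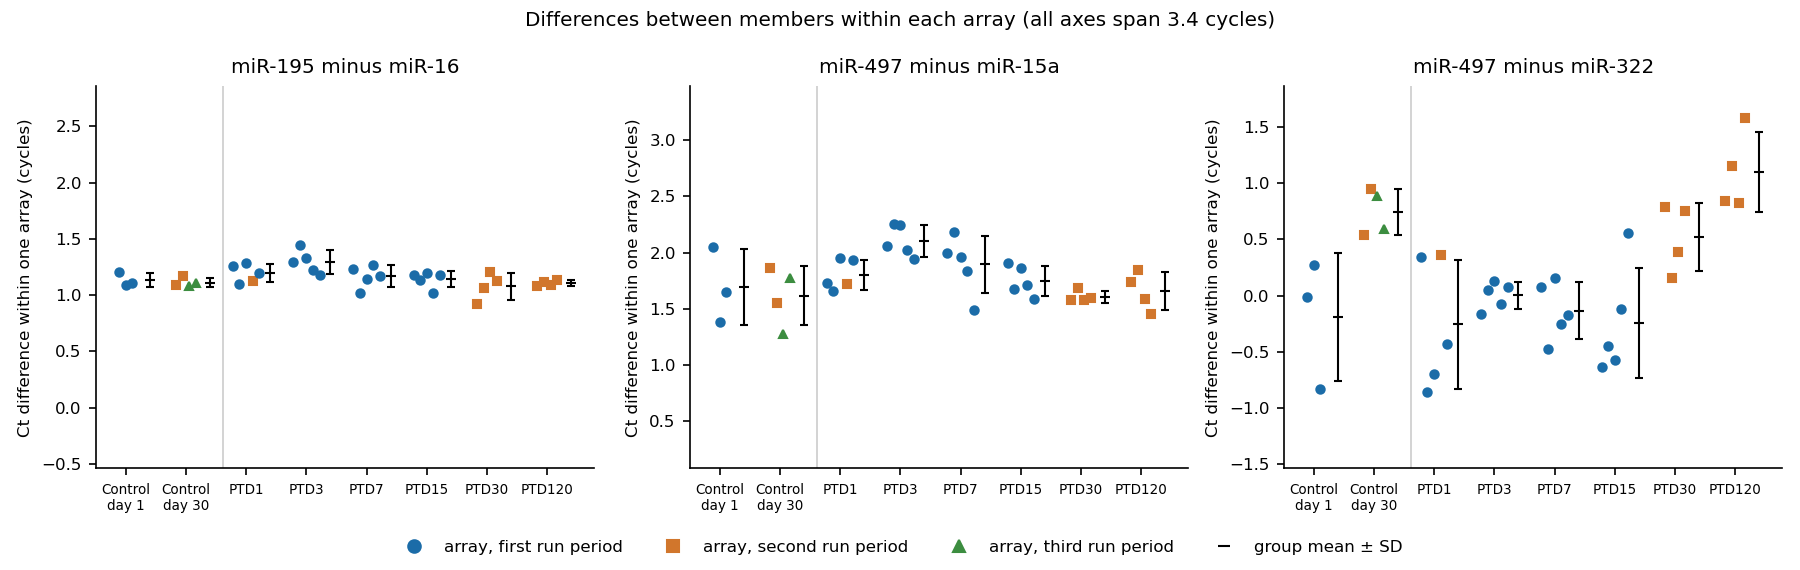
Ct of 1 member minus Ct of another within each array (y axis, cycles, the same span in each panel) by group (x axis), with black bars for the group mean ± SD. miR-195 minus miR-16 stays between 0.92 and 1.44 in all arrays, while miR-497 minus miR-322 runs from −0.86 to 1.58. The latter has its highest group means in groups of the later run periods, which are also those of the later days.

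The assays most like each member by the same within-group spread did not form 1 set. For miR-15a they were miR-186, miR-497 and miR-185, with SDs of 0.19, 0.19 and 0.20 cycles. For miR-497 they were miR-106b, miR-15a and miR-186 (0.16, 0.19 and 0.20). For miR-15b they were let-7d, let-7a and miR-532-5p (0.21, 0.25 and 0.27). For miR-16 and miR-195 they were each other, miR-10a and miR-194, the last a hepatocyte miRNA, with SDs of 0.12 and 0.16. Neither miR-15b nor miR-322 had a family member among its 3 nearest assays. Those of miR-322 were miR-21, miR-199b, a miRNA of stromal cells, and miR-126-3p, a miRNA of endothelial cells, with SDs of 0.20, 0.20 and 0.24. These are descriptions over 35 arrays that share reference RNAs, input and run period.

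The wider group around the family holds miR-103, miR-107 and miR-503. miR-103 and miR-107 hold the same bases as the seed shifted by 1 position, and they lie inside Pank3, Pank2 and Pank1, genes for pantothenate kinases. Against the 7 pooled controls they were higher at PTD 15 by 0.80 ± 0.23 (SE) and 0.79 ± 0.23 on the log2 scale, with adjusted p = 0.0396 for both by limma, but under 2-fold and so not DEMs. miR-103 had −ΔCt of 0.70, 0.76, 0.50, 0.39 and 0.59, against −0.55 to 0.10 in the controls. miR-107 had −0.29, −0.48, −0.13, −0.53 and −0.22, against −1.33 to −0.71. At that adjusted p 7.71% of all miRNAs were higher. All 5 arrays of both lay above all 7 controls, as for 7.71% of all miRNAs, and the exact permutation p was 0.00126, the smallest possible. miR-103 and miR-107 differed between the control sets by 0.29 ± 0.22 and 0.06 ± 0.24 (adjusted p = 0.296 and 0.836 by limma). With the median Ct as reference their values at PTD 15 were 0.83 and 0.82, with adjusted p = 0.0415 and 0.0646 by limma, and both overlapped the controls. Of the cell type markers in the comparison with the 7 controls at PTD 15, 2 of 3 erythroid were DEMs, miR-144 and miR-451, higher by 1.52 and 1.04, and 0 of 3 hepatocyte, 0 of 5 leukocyte, 0 of 2 endothelial and 0 of 3 stromal were DEMs by limma. Without PTD 15 replicate 1 the erythroid count was 1 of 3 and the others stayed at 0. An unadjusted p under 0.05 by limma was also reached by 1 leukocyte marker, miR-142-5p, at −0.95, and 1 stromal marker, miR-214, at 0.66. The summed erythroid markers ran from 2.09 to 3.43 in the controls and from 2.95 to 4.18 at PTD 15, and the other sums of the controls and of PTD 15, given above, overlapped too. The part of these markers was not tested. miR-503 was low, at a mean Ct of 29.7, and differed by −0.15 ± 0.36 at PTD 15.

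The X-linked cluster of miR-322 (miR-503, miR-351, miR-542-3p, miR-542-5p, miR-450a-5p, miR-450a-3p and miR-450b-3p) held 0 of 7 DEMs by limma at every PTD against the pooled controls, where 1.33% to 11.4% of all miRNAs were DEMs, with a median of −0.21 at PTD 15. At an unadjusted p under 0.05 by limma it held 1 assay at PTD 120, miR-450b-3p at 0.89, against 8.78% of all miRNAs, and none at the earlier days, against 5.05% to 29%. Other control sets gave counts up to 3 of 7, the highest at PTD 30 against the controls labelled day 1, where 37.5% of all miRNAs were DEMs. Between the control sets 4 of 7 were DEMs, against 28.5% of all miRNAs: miR-450a-5p at 1.73, miR-542-5p at 1.37, miR-542-3p at 1.34 and miR-351 at 1.05, all higher in the day 30 set as miR-322 was, and 0 of 7 were with the median Ct as reference, against 5.05%. The let-7 assays with miR-98, another family that restrains growth, held 1 of 9 DEMs at PTD 15 against the pooled controls, let-7b at 1.06, where 11.4% of all miRNAs were DEMs, with a median of 0.61. Between the control sets 7 of 9 were DEMs, against 28.5% of all miRNAs, and 0 of 9 with the median Ct as reference, against 5.05%. Against the controls of the first run period 6 of 9 were DEMs at PTD 15, where 40.4% of all miRNAs were, and 2 of 9 with the median Ct, against 22.3%.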

How the data were processed

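Small RNA from the liver of each of 35 mice was measured by SYBR Green PCR on a 384-well array with 376 miRNA assays, and the members and lists were chosen with earlier results of these data known. The authors deposited 1 score per well, the raw Ct from SDS 2.3, with nothing normalized or pooled. Array depth is not a count, so the number of arrays limits the precision. Wells were named from the study's assay list. The 15 wells listed as Undetermined, on 11 arrays and none of them a member, were treated as missing. The deposited PTD 3 replicate 3 differs from the study's own processed values for that mouse, and it was used as deposited. −ΔCt was taken against the mean of 4 reference RNAs, as in the study. The labels give 3 controls at day 1 and 4 at day 30, the methods give these numbers the other way round, and the day is used here as a label only.

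Groups were compared with limma 3.58.1 in R 4.3.3 over all 376 miRNAs with Benjamini-Hochberg adjustment, and single members with two-sided exact permutation tests. A DEM had p under 0.01 and a fold change above 2. In data simulated for 5 against 7 arrays, 32 of 40 miRNAs changed by 2 on the log2 scale and 3 unchanged ones were called. Named assays were the members, the wider group, the X-linked cluster, let-7, the 3 assays nearest to each member, and the cell type markers. Alternatives changed the reference, the controls, the test, the treatment of high Ct values, the block and the arrays kept. The comparison with the controls of the first run period was added after seeing the data.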

Additional observations from a re-analysis of the deposited data

Results flagged for a closer look

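Among the 48 groups of members tested for a sample far from the others, 3 had one, where chance gives about 1 in 20. They were miR-16 at PTD 15, with replicate 5 at a −ΔCt of 6.14, and miR-16 and miR-195 at PTD 120, both with replicate 2, at 5.92 and 4.81. The last pair is the same array and the assays with the smallest spread between them.

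Levels differed between PTD 15 and PTD 1 with an adjusted p under 0.05 by limma for 4 members, against 31.1% of all miRNAs higher at that threshold, each higher at PTD 15 on the log2 scale: miR-15b by 1.55, miR-195 by 1.27, miR-16 by 1.22 and miR-497 by 1.07. With the median Ct as reference only miR-15b kept an adjusted p under 0.05 (0.0125 by limma), against 12.2% of all miRNAs, at 1.21.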

How the results depend on the processing

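Counts are DEMs among the 6 members. Against the 7 controls, where the count was 0 at every PTD, the controls labelled day 30 alone gave 3 at PTD 1, all lower, against 13% of all miRNAs. The controls labelled day 1 alone gave 2 at PTD 7 and 5 at PTD 15, and 4 each for PTDs 30 and 120, against 33%, 40.4%, 37.5% and 27.9% of all miRNAs, and controls of the same run period gave 2 at PTD 7 and 5 at PTD 15. Run period as a block gave counts of 1, 3 and 4 for PTDs 3, 7 and 15, against 14.9%, 30.3% and 36.2% of all miRNAs. The median Ct gave 1 each for PTDs 3 and 7 (all miRNAs 4.79% and 18.1%), and the references without snoRNA251 gave 1 at PTD 15 (16.2%). Between the control sets 5 were DEMs without snoRNA202 (31.1%), the median Ct gave 0 (5.05%), and so did the exact test, which cannot pass 0.01 there. Between PTD 7 and PTD 1 the median Ct gave 1 (25%). Between PTD 15 and PTD 1 the count was 4 without snoRNA251 (35.4%), 0 without snoRNA202 (12.8%), 2 without snoRNA142 (25.8%) and 3 by the exact test (19.4%). Against the first-period controls, added after seeing the data, PTD 3 gave 3 without snoRNA202 (22.1%) and 1 by the methods' t-test (7.45%). PTD 7 gave 1 by the median Ct (29.8%), 4 without U6 (34.8%) and 1 by the methods' t-test (23.4%), and PTD 15 gave 1 by the median Ct (22.3%), 4 without U6 (30.6%) and 6 without snoRNA251 (46%). The exact test, which cannot pass 0.01 with 3 controls here, gave 0 for PTDs 7 and 15.

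Replicate numbers were not taken as pairs in the main fits. Against the controls, deviations of same-numbered arrays had correlations from −0.11 to 0.52 for PTD 1 and from 0.06 to 0.49 for PTD 3. They ran from −0.16 to 0.10 for PTD 15. Whether same-numbered arrays shared handling was not tested. The replicate block gave 1 between PTD 7 and PTD 1 (25.3%), and 0 at PTD 7 (17.8%) and 2 at PTD 15 (19.9%) against the first-period controls. It turned the log2 fold change against the 7 controls to −0.068 for miR-15b at PTD 3, −0.035 for miR-195 and −0.19 for miR-322 at PTD 7, and −0.11 for miR-322 at PTD 15.

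Signs of small log2 fold changes against the 7 controls turned too. With the controls labelled day 1 they were 0.26 for miR-15a, 0.13 for miR-16, 0.067 for miR-195, 0.089 for miR-322 and 0.16 for miR-497 at PTD 1, and 0.89 for miR-16, 0.73 for miR-195 and 0.98 for miR-322 at PTD 3. With the controls labelled day 30 they were −0.56 for miR-15b and −0.059 for miR-497 at PTD 3, −0.10 for miR-15b at PTD 7, and for miR-16, miR-195 and miR-322 −0.53, −0.59 and −0.76 at PTD 7 and −0.35, −0.38 and −0.61 at PTD 15. The same controls gave miR-16 and miR-195 −0.19 and −0.16 at PTD 30 and −0.22 and −0.22 at PTD 120. With controls of the same run period they were 0.23, 0.11 and 0.11 for miR-15a, miR-15b and miR-497 at PTD 1, 0.89, 0.73 and 0.98 for miR-16, miR-195 and miR-322 at PTD 3, −0.17 and −0.12 for miR-16 and miR-195 at PTD 30, and −0.012, −0.21 and −0.19 for miR-15a, miR-16 and miR-195 at PTD 120. With the median Ct they were 0.19 and 0.042 for miR-15a and miR-497 at PTD 1, 0.22, 0.044 and 0.26 for miR-16, miR-195 and miR-322 at PTD 3, −0.029 and −0.038 for miR-15a and miR-497 at PTD 120, and −0.14 and −0.057 for the same members between the control sets. With run period as a block they were 0.034 for miR-15a at PTD 1 and 0.75, 0.60 and 0.86 for miR-16, miR-195 and miR-322 at PTD 3. With the reverse transcription wells as covariate they were −0.089 for miR-15b at PTD 3, −0.13, −0.20 and −0.33 for miR-16, miR-195 and miR-322 at PTD 7, and −0.17 for miR-322 at PTD 15. Without U6, miR-322 had 0.0014, −0.048 and −0.031 at PTDs 3, 7 and 15. Without snoRNA142, miR-15b had −0.13 at PTD 3, miR-322 had −0.015 at PTD 7, and PTD 120 minus PTD 30 was 0.037 for miR-16 and 0.0091 for miR-195. Without snoRNA202, miR-16 and miR-322 had 0.093 and 0.14 at PTD 3. The cause of these changes was not tested.

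Leaving out 1 array at a time gave 0 to 2 DEMs between PTD 7 and PTD 1, with 44 to 81 among all miRNAs. Between PTD 15 and PTD 1 it gave 0 to 3, with 46 to 103 among all miRNAs. Against the first-period controls it gave 0 to 2 at PTD 3, 0 to 6 at PTD 7 and 2 to 5 at PTD 15. Among all miRNAs these last fits called 13 to 60, 82 to 171 and 99 to 147. Log2 fold changes that turned ran from −0.45 to 0.069 for miR-15a at PTD 1, from −0.15 to 0.30, −0.30 to 0.082 and −0.32 to 0.12 for miR-15b, miR-16 and miR-322 at PTD 3, from −0.031 to 0.40, −0.074 to 0.31 and −0.28 to 0.20 for miR-16, miR-195 and miR-322 at PTD 7, and from −0.13 to 0.31 for miR-322 at PTD 15. Between PTD 120 and PTD 30 they ran from −0.11 to 0.39, −0.26 to 0.14 and −0.30 to 0.066 for miR-15b, miR-16 and miR-195. The small number of arrays per group limits all of these values.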
